A study of Mus musculus with 6 samples.

Results

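The genes described here are the small MAF transcription factors, NRF2 with its regulators, and direct NRF2 targets, measured in mouse spinal cord after contusion. They were taken as the rows of the 6 count tables whose Ensembl identifier carries 1 of 10 symbols: Maff, Mafg, Mafk, Nfe2l2, Keap1, Bach1, Hmox1, Srxn1, Gclm and Txnrd1. All 10 symbols matched 1 identifier each, among 43432 in the tables, and all 10 passed the filter on low counts that left 13560 genes for testing. The injured group (SCI, n = 3 mice) were wildtype C57BL/6 mice with a contusion of 50 kdyn on one side of the cord at cervical level 5, and cord tissue was taken 4 h later. The sham group (n = 3 mice) were wildtype C57BL/6 mice with the laminectomy alone, which opens the bone and spares the cord, and their collection time was not used here. Both groups thus shared the strain, the genotype and the surgical opening, and no group carried a transgene.

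Small MAF proteins are short bZIP factors that bind DNA as dimers but lack a domain that activates transcription, so what they do depends on their partner. With NRF2, the product of Nfe2l2, they bind antioxidant response elements and switch on genes for glutathione, thioredoxin and haem metabolism, and with BACH1 they hold the same genes down until haem releases BACH1 from DNA. KEAP1 holds NRF2 in the cytoplasm for degradation and lets it accumulate when its cysteines are oxidised. The pathway is known in the cord as a defence against the oxidants and free haem that follow bleeding.

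The promoter windows of the 3 members that rose, and of Gclm as a target that was not called, are shown first, because antioxidant response elements in such windows are what NRF2 and small MAF dimers read. They are RefSeq windows on GRCm38.p6, from 250 bases before to 50 bases after an annotated gene start, in the direction of transcription. Capitals mark matches on either strand to TGACNNNGC or TGAGNNNGC, the 2 forms of the antioxidant response element core searched, to TGACTCA, the AP-1 core, or to TGACGTCA, the cyclic AMP response element core. Maff has 3 annotated starts in the table, of which the first and the second are shown, and a 3′ count does not tell which of them was used.
Srxn1, chr2:152105274-152105573, plus strand: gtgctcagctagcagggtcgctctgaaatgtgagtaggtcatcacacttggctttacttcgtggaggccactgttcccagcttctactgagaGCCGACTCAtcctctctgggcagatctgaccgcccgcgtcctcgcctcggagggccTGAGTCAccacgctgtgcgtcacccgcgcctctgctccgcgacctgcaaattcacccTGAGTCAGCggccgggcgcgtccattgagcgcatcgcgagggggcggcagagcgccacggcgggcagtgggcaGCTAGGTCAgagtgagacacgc
Maff, first start, chr15:79346371-79346670, plus strand: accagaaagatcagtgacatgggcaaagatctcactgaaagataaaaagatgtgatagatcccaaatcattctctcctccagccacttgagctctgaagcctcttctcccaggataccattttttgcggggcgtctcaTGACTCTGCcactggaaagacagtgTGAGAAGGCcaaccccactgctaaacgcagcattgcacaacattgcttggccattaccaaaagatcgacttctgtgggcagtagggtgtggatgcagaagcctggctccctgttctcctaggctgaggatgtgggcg
Maff, second start, chr15:79347270-79347569, plus strand: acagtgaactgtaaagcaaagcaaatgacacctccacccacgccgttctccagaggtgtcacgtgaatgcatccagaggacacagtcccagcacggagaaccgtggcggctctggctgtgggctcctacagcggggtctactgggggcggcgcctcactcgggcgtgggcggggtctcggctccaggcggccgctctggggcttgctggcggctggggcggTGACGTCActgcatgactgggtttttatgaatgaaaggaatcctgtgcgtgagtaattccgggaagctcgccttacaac
Mafk, chr5:139791286-139791585, plus strand: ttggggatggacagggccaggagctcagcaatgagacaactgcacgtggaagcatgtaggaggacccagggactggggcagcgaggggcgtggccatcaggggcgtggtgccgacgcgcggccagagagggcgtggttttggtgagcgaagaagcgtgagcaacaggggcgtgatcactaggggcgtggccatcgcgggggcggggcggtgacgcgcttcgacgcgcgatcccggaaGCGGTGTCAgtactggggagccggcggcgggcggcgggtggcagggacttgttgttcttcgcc
Gclm, chr3:122245307-122245606, plus strand: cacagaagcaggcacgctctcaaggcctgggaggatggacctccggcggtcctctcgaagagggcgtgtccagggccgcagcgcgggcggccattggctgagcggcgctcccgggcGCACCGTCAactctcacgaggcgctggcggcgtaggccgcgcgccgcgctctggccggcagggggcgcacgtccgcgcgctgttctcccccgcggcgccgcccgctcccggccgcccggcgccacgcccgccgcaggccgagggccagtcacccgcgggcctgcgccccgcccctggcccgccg

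The Srxn1 window held 3 matches to the antioxidant response element core and 2 to the AP-1 core. The match whose first base lies 45 bases before the start, TGAGTCAGC, fits both at once, since its first 7 bases are the AP-1 core read on the other strand. The first Maff window held 2 matches to the antioxidant response element core, the second had none and held the cyclic AMP response element core 29 bases before the start, and the third held none of the 4 motifs. Mafk and Gclm each held 1 match. Over 32851 windows of the same length, 27.8% held either form of the antioxidant response element core, 5.20% the AP-1 core and 1.79% the cyclic AMP response element core. Hmox1 had no window in the table. The other 9 members had 13 windows, of which 7 held an antioxidant response element core, those of Gclm, Nfe2l2 and Mafg among them, so its letters alone did not separate the members that rose from the others. These are matches of letters, not measured binding.

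Levels are given as CPM, read counts divided by the library size after scaling by TMM, a method that aligns libraries on the bulk of their genes. Because each library counts reads near the 3′ end of a transcript, CPM does not grow with transcript length and was used uncorrected to order genes. Genes whose 3′ end overlaps another gene are less certain in that order. The 6 libraries held 3407176 to 11543633 counts, and the 3 counts that an observed 0 allows equal 0.260 to 0.880 CPM. Hepatocyte transcripts were present in every library, with 9 marker genes summing to 50460 to 54790 CPM in SCI and 39870 to 94320 CPM in sham, and sham 2 was the highest. Markers of neurons summed to 4443 to 4615 CPM in SCI and 4004 to 5739 CPM in sham, and those of oligodendrocytes to 5296 to 8991 CPM in SCI and 5764 to 7784 CPM in sham, so the cord tissue of the labels was there in both groups.

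After contusion, 2 of the 3 small MAF genes and 1 of the 4 targets rose, and NRF2 itself, KEAP1 and BACH1 were not called. Of the 10 members, 3 were higher and 0 lower at an adjusted p under 0.05 in edgeR's quasi-likelihood test, against a background of 0.885% of 13560 tested genes called higher and 0.0442% called lower. All SCI libraries lay above all sham libraries in 4 members, Maff, Mafk, Bach1 and Srxn1, and such a separation upwards was found in 7.73% of all tested genes, a separation downwards, seen in 0 members, in 5.94%. The members' median log2 fold change was 0.32, beside -0.0025 over all tested genes. At an unadjusted p under 0.05 stood 4 members, where 7.38% of all genes did.

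**Figure D1:**
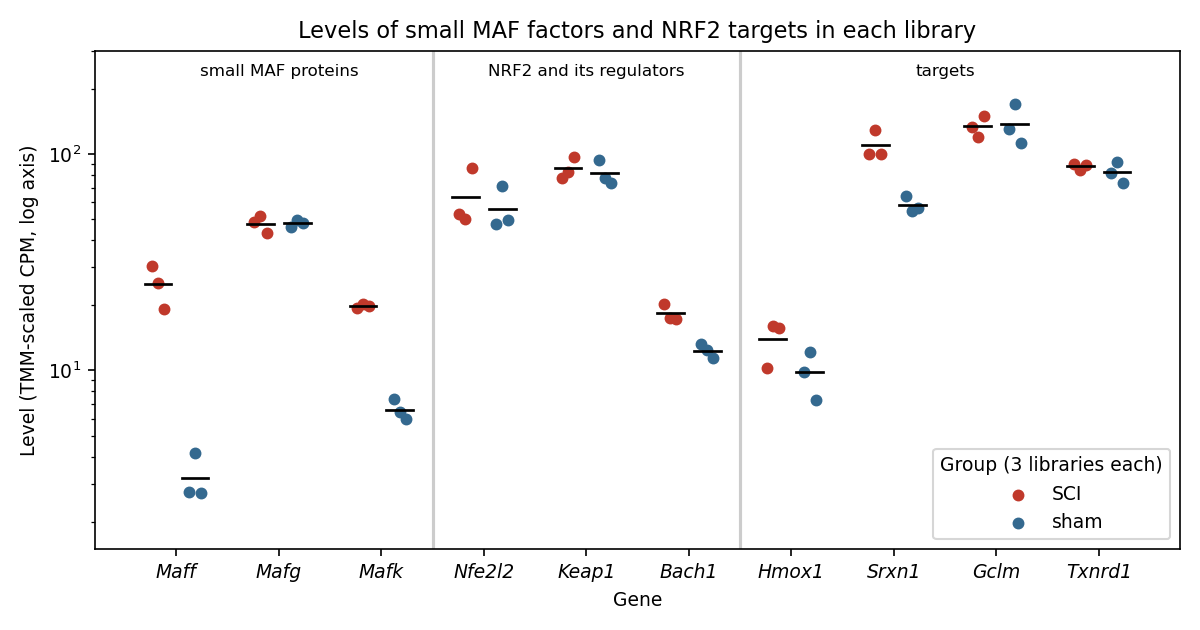
Level of each member in each library, in TMM-scaled CPM on a log axis, with SCI left of sham and a line at the mean of 3 libraries. Maff, Mafk, Bach1 and Srxn1 have every SCI library above every sham library, and the groups overlap in the other members.

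Maff, the small MAF gene known as inducible by stress and cytokines, lies on chromosome 15 at 79346621 to 79359076 (GRCm38, plus strand; ENSMUSG00000042622) with no annotated gene overlapping it. It was at 30.3, 25.4 and 19.2 CPM in SCI libraries 1 to 3, against 2.76, 4.14 and 2.71 CPM in sham libraries 1 to 3. Even the lowest SCI library was far above the highest sham library. The group means were 24.99 ± 5.57 CPM in SCI and 3.20 ± 0.812 CPM in sham (SD, n = 3 each), a ratio of 7.80. Maff rose by 2.91 ± 0.27 on the log2 scale (SE; edgeR adjusted p = 5.74e-05), the 5th smallest p among 13560 genes. With any 1 library left out it stayed between 2.75 and 3.18 and remained called.

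Mafk, which pairs with NRF2 and BACH1 alike, lies on chromosome 5 at 139791513 to 139802653 (plus strand; ENSMUSG00000018143). Its SCI libraries were at 19.5, 20.4 and 19.8 CPM and its sham libraries at 7.35, 6.45 and 5.97 CPM. Libraries within a group were thus close together and the groups were well apart, with means of 19.9 ± 0.449 CPM in SCI and 6.59 ± 0.704 CPM in sham (SD, n = 3 each). Mafk rose by 1.58 ± 0.22 on the log2 scale (SE; edgeR quasi-likelihood test, adjusted p = 0.00123), and the call held without each single library, at 1.53 to 1.65. The 3′ end of Mafk overlaps that of Tmem184a on the opposite strand, and the strand setting of the counting is not given in the sources used here. Tmem184a was at 3.68 ± 2.01 CPM in SCI and 4.05 ± 1.94 CPM in sham and was not called (log2 fold change -0.23 ± 0.46, SE).

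Mafg, the remaining small MAF gene, is known as the most widely expressed of the family. It lies on chromosome 11 at 120625117 to 120633600 (minus strand; ENSMUSG00000051510), and its 3′ end overlaps the start of Sirt7 on the same strand, so reads there are uncertain. Its levels were 48.4, 51.5 and 43.0 CPM in SCI and 45.8, 49.8 and 48.3 CPM in sham. The groups overlapped throughout, and the log2 fold change was -0.0081 ± 0.17 (SE) with a 95% interval of -0.37 to 0.35, so a difference as large as that of Mafk lies outside the interval. Its sign turned positive, at 0.016, with total counts in place of TMM. Sirt7 was at 36.2 ± 5.71 CPM in SCI and 33.5 ± 10.02 CPM in sham and was not called either.

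The make-up of the small MAF pool therefore differed between the groups in these libraries. The shares are built from the same counts as the levels above, so they restate those differences and are no separate result. Of the summed counts of the 3 genes, Maff held 30.9% (95% exact binomial interval 27.8 to 34.2%) in SCI 1, 26.1% (22.8 to 29.6%) in SCI 2 and 23.4% (19.4 to 27.8%) in SCI 3. In sham its share was 4.93% (3.08 to 7.44%), 6.86% (5.01 to 9.13%) and 4.76% (2.31 to 8.58%) in libraries 1 to 3. No interval of an SCI library touched that of a sham library, though the intervals cover counting error only. The mean share was 26.8 ± 3.79% in SCI and 5.52 ± 1.17% in sham (SD, n = 3 each), a difference of 21.3 percentage points (exact two-sided permutation test, p = 0.1, the smallest that 3 against 3 can give). Mafg held 49.3, 53.0 and 52.4% of the counts in SCI libraries and 81.9, 82.5 and 84.8% in sham libraries, and stayed the most abundant of the family in all 6. The 3′ ends of Mafg and Mafk overlap other genes, while Maff has no overlap, so the size of the shares carries that uncertainty.

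Summed over the family, small MAF transcripts stood at 98.2, 97.3 and 82.1 CPM in SCI, against 55.9, 60.4 and 56.9 CPM in sham. The means of 92.5 ± 9.05 CPM in SCI and 57.8 ± 2.33 CPM in sham (SD, n = 3 each) were apart while Mafg did not separate the groups, so the difference of the sum came from Maff and Mafk. Within a library, counts of Maff per count of Mafg were 0.628, 0.493 and 0.447 in SCI and 0.0602, 0.0832 and 0.0562 in sham. Maff also stood higher relative to Mafk in each SCI library, with 1.56, 1.25 and 0.970 counts of Maff per count of Mafk in SCI and 0.375, 0.642 and 0.455 in sham. These ratios were chosen after the values were seen, and no p is given for them.

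**Figure D2:**
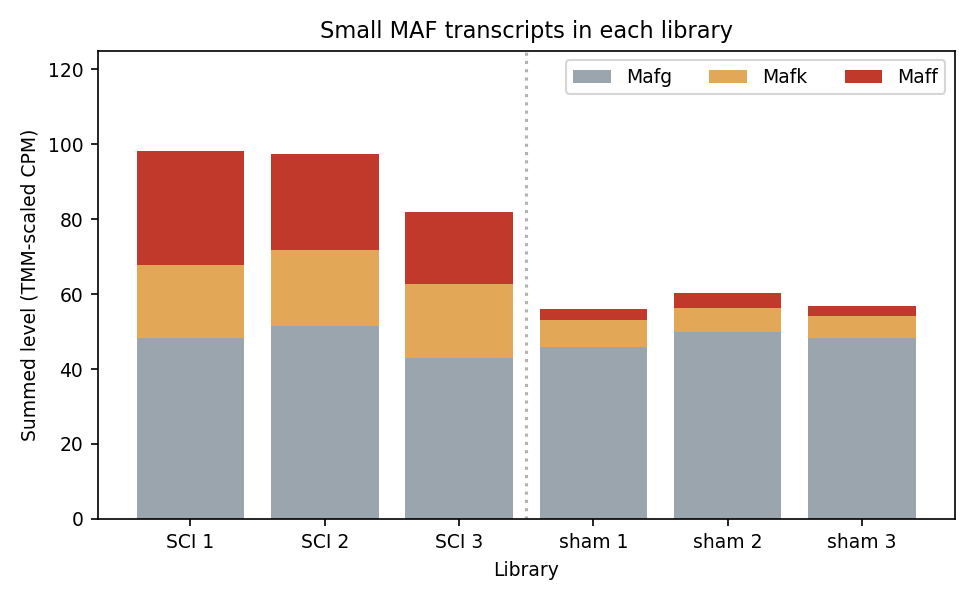
Stacked levels of Mafg, Mafk and Maff in each library, in TMM-scaled CPM, with the 3 SCI libraries left of the 3 sham libraries. The summed bars reach 82.1 to 98.2 CPM in SCI and 55.9 to 60.4 CPM in sham, and the Mafg segments are of like height in both groups.

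Of the 3 members for NRF2 and its regulators, Nfe2l2, Keap1 and Bach1, the last had the largest fold change. Bach1 is the haem-sensitive repressor that competes with NRF2 for small MAF proteins. It lies on chromosome 16 at 87698945 to 87733346 (plus strand; ENSMUSG00000025612) and was at 20.3, 17.5 and 17.2 CPM in SCI and 13.3, 12.4 and 11.4 CPM in sham. Every SCI library was above every sham library, with means of 18.3 ± 1.71 CPM in SCI and 12.4 ± 0.939 CPM in sham (SD, n = 3 each). Its log2 fold change of 0.56 ± 0.21 (SE, 95% interval 0.12 to 1.01) had an unadjusted p of 0.0159 and did not pass over all genes (edgeR, adjusted p = 0.458). None of the 13 alternatives called it.

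Nfe2l2, the gene of NRF2, lies on chromosome 2 at 75675513 to 75704641 (minus strand; ENSMUSG00000015839). It was at 52.7, 50.2 and 86.4 CPM in SCI and 47.5, 71.0 and 49.3 CPM in sham. The groups overlapped, and 1 library stood above the others on each side, SCI 3 and sham 2. The log2 fold change was 0.16 ± 0.23 (SE, 95% interval -0.33 to 0.66), and it turned to -0.14 without SCI 3. Sham 2 was also the library with the most hepatocyte transcripts. Within SCI, the hepatocyte markers Apoa1, Apoa2, Ahsg, Fga, Fgg, Apoh and Cyp2e1 were highest in SCI 3, and Alb and Fgb in SCI 1. The log2 fold change of Nfe2l2 was 0.37 without sham 2, and 0.21 ± 0.17 (SE) in the fit that holds the hepatocyte markers as a covariate. Neither fit called Nfe2l2, and the part of hepatocyte transcripts in its level was not tested. NRF2 is controlled largely at the level of its protein, which these libraries do not measure.

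Keap1, the sensor that marks NRF2 for degradation, lies on chromosome 9 at 21229730 to 21239361 (minus strand; ENSMUSG00000003308). Its levels of 77.7, 82.9 and 97.3 CPM in SCI and 93.4, 77.7 and 73.2 CPM in sham overlapped, and its log2 fold change was 0.075 ± 0.18 (SE, 95% interval -0.31 to 0.46). Without SCI 3 the sign turned, at -0.031. An annotated antisense gene, Gm16754, overlaps Keap1 and held 2 counts over the 6 libraries.

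Srxn1 was the called target. It encodes sulfiredoxin, which restores peroxiredoxins that have been overoxidised, and lies on chromosome 2 at 152105516 to 152111376 (plus strand; ENSMUSG00000032802) with no overlapping gene. It was at 99.98, 129 and 99.5 CPM in SCI, against 64.1, 54.8 and 56.4 CPM in sham, so every SCI library was above every sham library and SCI 2 was the highest. The means were 109.6 ± 17.1 CPM in SCI and 58.4 ± 4.96 CPM in sham (SD, n = 3 each), a ratio of 1.88. Srxn1 rose by 0.91 ± 0.18 on the log2 scale (SE; edgeR quasi-likelihood test, adjusted p = 0.0218). The call was lost without SCI 1 (edgeR adjusted p = 0.0770), SCI 2 (0.202) or sham 1 (0.130), while the log2 fold change without them was 0.97, 0.77 and 0.97. Without sham 2, the library richest in hepatocyte transcripts, it was 0.85 and the call held (edgeR adjusted p = 0.0187).

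**Figure D3:**
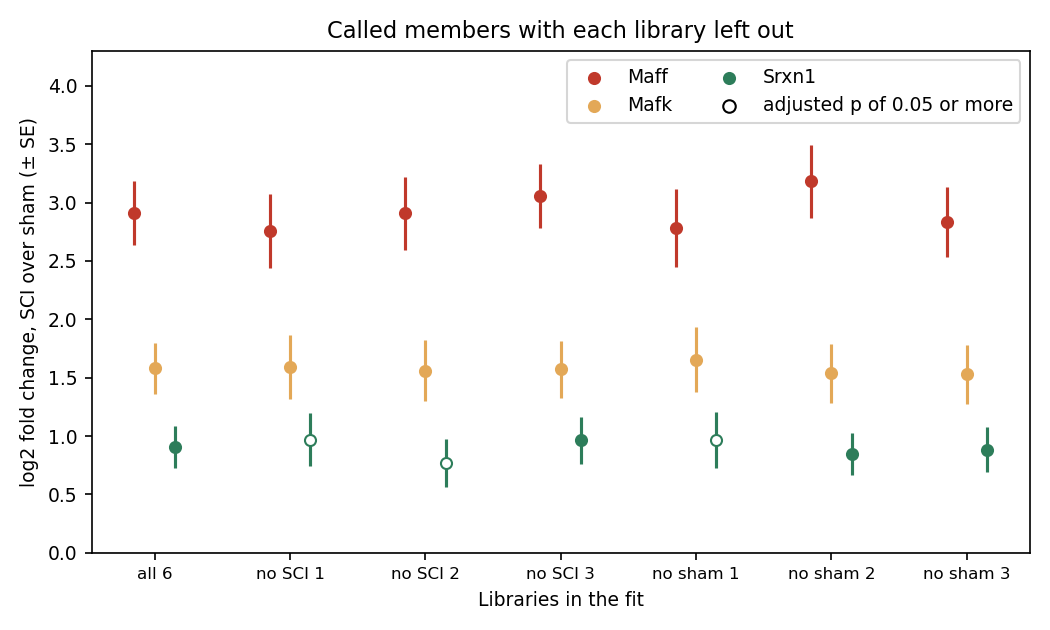
Log2 fold change of SCI over sham with its SE for the 3 called members, with all 6 libraries and with each library left out, where open points have an adjusted p of 0.05 or more. Maff (2.75 to 3.18) and Mafk (1.53 to 1.65) keep their calls in the 6 reduced fits, and Srxn1 loses its call in 3 of them.

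Hmox1, which encodes the inducible haem oxygenase and is repressed by BACH1, was not called. It lies on chromosome 8 at 75093621 to 75100589 (plus strand; ENSMUSG00000005413). It was at 10.3, 16.0 and 15.7 CPM in SCI and 9.85, 12.2 and 7.32 CPM in sham. SCI 2 and SCI 3 were above all sham libraries, while SCI 1 was below sham 2. The means were 14.0 ± 3.22 CPM in SCI and 9.80 ± 2.45 CPM in sham (SD, n = 3 each), and the log2 fold change was 0.47 ± 0.26 (SE; edgeR adjusted p = 0.757). Its 95% interval ran from -0.090 to 1.03.

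Levels of erythroid transcripts are given beside Hmox1, because haem from red cells is its substrate. The 5 erythroid markers were all called higher, and their sum was 2991, 1582 and 4280 CPM in SCI libraries 1 to 3 and 839.7, 770.1 and 610 CPM in sham libraries 1 to 3. Markers of monocytes and macrophages, cells known to express Hmox1, summed to 71.2 to 88.0 CPM in SCI and 57.2 to 86.8 CPM in sham, with 1 of the 4 tested called, the platelet and macrophage gene Pf4, which was higher. Those of microglia summed to 158 to 199.6 CPM in SCI and 181 to 213 CPM in sham, with 1 of 6 called, P2ry12, which was lower. Markers of neutrophils summed to 48.7 to 66.7 CPM in SCI and 14.9 to 43.0 CPM in sham, with 0 of the 5 tested called by edgeR, DESeq2 or limma voom. Of those 5, 4 had an unadjusted edgeR p under 0.05 and no overlap between the groups, S100a8, S100a9, Retnlg and Mmp8, with the SCI levels above. Over all tested genes, 7.38% had such a p and 7.73% such a separation upwards. Camp, also tested, overlapped between the groups, at 1.31 CPM in SCI and 1.52 CPM in sham. The untested Cxcr2 was at 0.387 CPM in SCI and 0.379 CPM in sham, and the untested Csf3r at 0.508 and 0.187 CPM. The sum of the neutrophil markers and that of the erythroid markers were higher in every SCI library than in any sham library, as were Maff, Mafk, Bach1 and Srxn1. In bulk tissue, fewer cells of a type and less RNA per cell cannot be told apart, and the part of these cells in the levels of Hmox1 and of those 4 members was not tested.

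The glutathione and thioredoxin targets showed no difference past the test. Gclm, the modifier subunit of the enzyme that limits glutathione synthesis, lies on chromosome 3 at 122245557 to 122270732 (plus strand; ENSMUSG00000028124). It was at 133, 120.4 and 149.9 CPM in SCI and 130.5, 170.3 and 112 CPM in sham, and its groups overlapped, with sham 2 the highest of all. The log2 fold change was -0.038 ± 0.20 (SE, 95% interval -0.46 to 0.39). It became 0.14 without sham 2, 0.036 without SCI 2 and 0.014 in the fit that holds the hepatocyte markers as a covariate, so no direction is given.

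Txnrd1, the cytosolic thioredoxin reductase, lies on chromosome 10 at 82833951 to 82897712 (plus strand; ENSMUSG00000020250). Eid3 lies within it on the same strand and is not among the counted genes, so its level could not be given. The levels of Txnrd1 were 89.8, 84.8 and 88.8 CPM in SCI and 81.5, 92.1 and 73.8 CPM in sham. The groups overlapped, and the log2 fold change was 0.087 ± 0.17 (SE, 95% interval -0.28 to 0.45). With 1 library left out it ranged from 0.015 without sham 3 to 0.165 without sham 2. For both genes the interval ends below the log2 fold change of Srxn1. Counts of Srxn1 per count of Gclm were 0.750, 1.07 and 0.664 in SCI and 0.491, 0.322 and 0.502 in sham, and those of Srxn1 per count of Txnrd1 were 1.11, 1.53 and 1.12 in SCI and 0.786, 0.595 and 0.765 in sham. Those of Srxn1 per count of Hmox1 were 9.73, 8.07 and 6.35 in SCI and 6.51, 4.48 and 7.70 in sham, and these overlapped. The ratios were chosen after the values were seen, so they describe the libraries and no p is given for them.

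**Figure D4:**
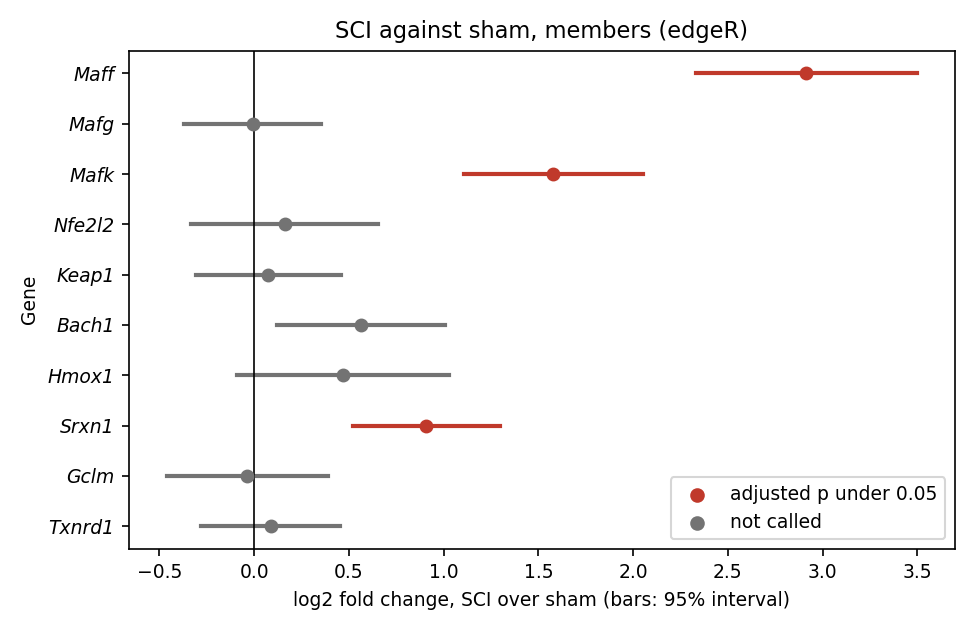
Log2 fold change of SCI over sham for each member with its 95% interval from edgeR, red where the adjusted p over all genes was under 0.05. Maff, Mafk and Srxn1 are called, Bach1 has an interval above 0 and is not called, and the intervals of the other 6 members include 0.

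The order of levels also differed. In SCI, Gclm was the most abundant member at 134.5 CPM, then Srxn1 at 109.6, Txnrd1 at 87.8, Keap1 at 86.0, Nfe2l2 at 63.1, Mafg at 47.6, Maff at 24.99, Mafk at 19.9, Bach1 at 18.3 and Hmox1 at 14.0 CPM. The libraries of Gclm and Srxn1 overlapped there, as did those of Txnrd1, Keap1 and Nfe2l2, those of Nfe2l2 and Mafg, and those of Maff, Mafk and Bach1. In sham the mean levels ran Gclm 138, Txnrd1 82.4, Keap1 81.4, Srxn1 58.4, Nfe2l2 55.95, Mafg 47.95, Bach1 12.4, Hmox1 9.80, Mafk 6.59 and Maff 3.20 CPM. There the libraries of Txnrd1 overlapped with those of Keap1, Srxn1 with Nfe2l2, Nfe2l2 with Mafg, Bach1 with Hmox1 and Hmox1 with Mafk, while those of Maff lay below all of Mafk. Maff was thus the least abundant member in sham, and in SCI it lay among Mafk and Bach1. Hepatocyte transcripts were present in every library, and their part in the levels of the members and in this order was not tested.

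The wider pathway was described with 7 lists holding 56 genes, of which 48 passed the filter. By edgeR 0 of the 48 were called in either direction, and 2 had an unadjusted p under 0.05, beside 7.38% of all genes. DESeq2 and limma voom likewise called 0. Their median log2 fold change was -0.035, with 22 above and 26 below 0. SCI libraries lay above all sham libraries in 1 of them and below in 3, beside 7.73% and 5.94% of all tested genes. The part of hepatocyte transcripts in the levels of these genes was not tested.

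**Figure D5:**
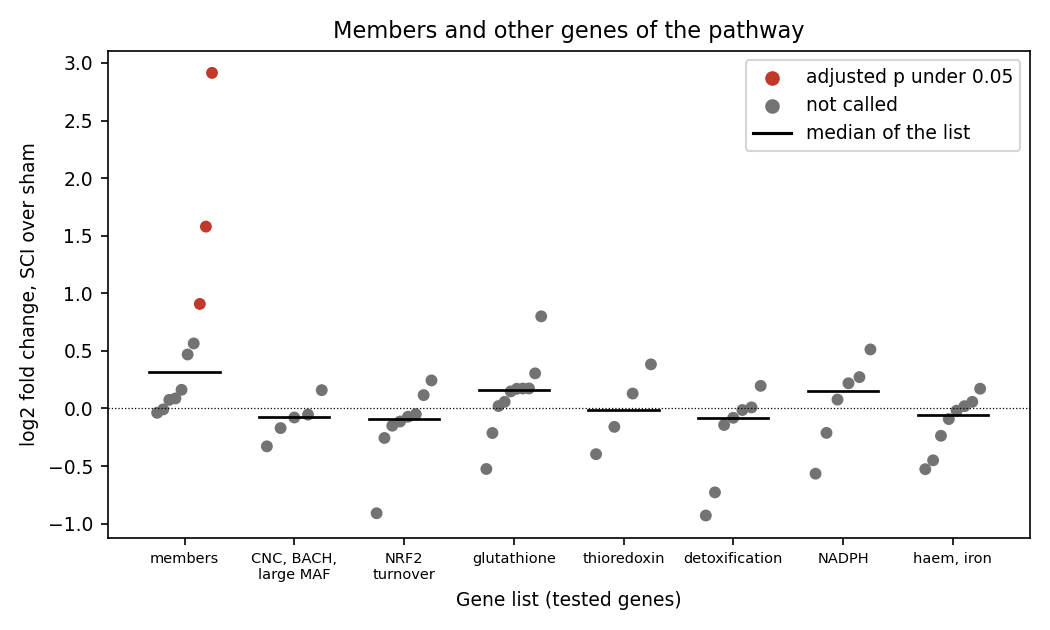
Log2 fold change of SCI over sham for the 10 members and for the tested genes of 7 lists of the pathway, each point a gene and each line the median of its list. Red points have an adjusted p under 0.05, and all of them are members.

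Slc7a11, the cystine importer that feeds glutathione synthesis, had the smallest p of the glutathione list. It was at 18.01, 23.8 and 12.9 CPM in SCI and 10.1, 10.5 and 11.1 CPM in sham, so that every SCI library was above every sham library, SCI 3 only narrowly. Its log2 fold change was 0.80 ± 0.25 (SE; edgeR adjusted p = 0.275). Of the 10 tested genes of glutathione synthesis and use, 0 were called and 8 had a positive log2 fold change, with a median of 0.16. The peroxidase gene Gpx1 and the transferase gene Gstm1 were the most abundant, at 1189 ± 199 and 1123 ± 254 CPM in SCI and 1142 ± 405 and 997 ± 244 CPM in sham (SD, n = 3 each). In sham libraries 1 to 3 Gpx1 was at 1144, 1546 and 736 CPM and Gstm1 at 1012, 1234 and 746 CPM. Both were thus highest in sham 2, as the hepatocyte markers were. In SCI both were highest in SCI 3, as were the hepatocyte markers Apoa1, Apoa2, Ahsg, Fga, Fgg, Apoh and Cyp2e1. Alb and Fgb were highest in SCI 1, as was the hepatocyte sum. Alb was the largest part of that sum, at 34220, 31760 and 27840 CPM in SCI libraries 1 to 3. The part of hepatocyte transcripts in the levels of Gpx1 and Gstm1 was not tested.

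Nqo1, the quinone reductase often used as a readout of NRF2, was low in these libraries. Its levels were 2.08 ± 0.581 CPM in SCI and 3.90 ± 0.676 CPM in sham (SD, n = 3 each), with all SCI libraries below all sham libraries. The log2 fold change was -0.93 ± 0.40 (SE; edgeR adjusted p = 0.605). The other named detoxifying genes, the carbonyl reductase Cbr1 and the epoxide hydrolase Ephx1, had log2 fold changes of -0.14 ± 0.21 and -0.014 ± 0.23, and 0 of the 7 in the list were called.

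In the thioredoxin and peroxiredoxin list 0 of 4 were called, and Prdx6, Prdx1 and Txn1 had log2 fold changes of 0.13 ± 0.23, -0.16 ± 0.24 and -0.40 ± 0.26 (SE). None of the 6 genes in the list of NADPH supply and the pentose phosphate pathway was called by edgeR. Among them Taldo1, a pentose phosphate enzyme, had a log2 fold change of 0.077 ± 0.21 and the isocitrate dehydrogenase gene Idh1 one of -0.57 ± 0.28, which was -0.10 without sham 2. In the haem and iron list 0 of 8 were called. The ferritin heavy chain gene Fth1 was at 3490 ± 384 CPM in SCI and 3099 ± 432 CPM in sham (SD, n = 3 each), a log2 fold change of 0.17 ± 0.26 that was 0.055 without sham 2 and 0.076 without SCI 2. Hpx, the haem carrier haemopexin made chiefly by liver, had a log2 fold change of -0.019 ± 0.30, and Cd163, the macrophage receptor that takes up haemoglobin, one of -0.53 ± 0.25 (edgeR adjusted p = 0.692), which was -0.25 without sham 2.

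Other bZIP factors that share partners or sites with the small MAF proteins were not called in 5 of 5 tested. Nfe2l1, a CNC factor related to NRF2, was at 63.4 ± 2.93 CPM in SCI and 67.0 ± 2.45 CPM in sham, and Maf, a large MAF factor, at 77.9 ± 5.29 CPM in SCI and 97.6 ± 22.1 CPM in sham (SD, n = 3 each). Among genes of NRF2 turnover, 0 of 8 were called. Sqstm1, the autophagy adaptor that binds KEAP1 and is itself an NRF2 target, had a log2 fold change of 0.24 ± 0.19 (SE). The kinase gene Gsk3b had one of -0.050 ± 0.21 (SE). Syvn1, a ubiquitin ligase, had one of -0.91 ± 0.43 (SE; edgeR adjusted p = 0.684), with all SCI libraries below all sham libraries. Its levels were low, at 2.54, 2.89 and 0.793 CPM in SCI libraries 1 to 3 and 3.94, 4.14 and 4.07 CPM in sham libraries 1 to 3. Without SCI 3 the log2 fold change of Syvn1 was -0.59.

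Genes whose pattern over the 6 libraries was nearest to that of Maff were Flnc, Adamts1, Cebpd, Apold1 and Ier3, all called higher. Nearness was the root mean square difference of log2 CPM centred on each gene's mean, among tested genes with a mean of at least 5 CPM, and it was 0.313 for Flnc, 0.350 for Adamts1, 0.377 for Cebpd, 0.379 for Apold1 and 0.477 for Ier3. For Hmox1 the nearest were Il17rc at 0.0701, Fcgr3 at 0.0820, Mt1 at 0.122, Phldb2 at 0.126 and Scnn1a at 0.133, and none of these was called by edgeR. Because nearness takes in the difference between the groups, calls like those of Maff and Hmox1 follow from the selection and are no separate result. Fcgr3 is an antibody receptor of myeloid cells and Mt1 a metallothionein that binds zinc.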

How the data were processed

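Total RNA of 6 spinal cords was made into Lexogen QuantSeq Forward libraries, per the labels' protocols, which read near the 3′ end of poly(A) transcripts. The authors deposited whole-number read counts per Ensembl gene, not normalized, in 1 table per library. Per the labels' design text, single-end reads of 50 bases from 1 µg of RNA were aligned with STAR 2.7.2b to mm10 with the Ensembl 96 annotation. DESeq2 1.24.0 is also named, per the submitters' processing notes. How reads were counted, with which strand setting, and what became of multiply matching reads is not given in the sources used here, so overlapping genes are uncertain and intervals from counts cover counting error only.

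The 43432 identifiers were matched to symbols (42462 matched) and to positions in GENCODE M21, which is on GRCm38. edgeR 4.0.16 (R 4.3.3) with filterByExpr, TMM and the robust quasi-likelihood F test compared SCI with sham in all 6 libraries without covariates, and p-values were Benjamini-Hochberg adjusted over 13560 genes, called under 0.05. Fold changes are log2 of SCI over sham with a prior count of 0.125, the SE is the absolute log2 fold change over the square root of F, and 95% intervals use the test's degrees of freedom. Marker lists of 10 cell types were summed per library. Alternatives were RLE scaling, total counts, no filter, DESeq2 1.42.0, limma voom 3.58.1, a replicate block, the hepatocyte level as a covariate and each library left out. The fit was tested on simulated data. The design text gives 3 mice a group, and libraries were taken as separate mice. No 2 libraries of a group agreed within sampling noise (chi-square per degree of freedom 6.97 to 38.0).

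Members, lists and the covariate were chosen with earlier results of these data known. The named genes were all members and, per pathway list, the 2 most abundant genes, the gene with the smallest p and any called gene, plus the 5 genes nearest to Maff and to Hmox1. Cell type genes and the genes overlapping a member were named as checks, and the ratios of member pairs were chosen after seeing the values.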

Additional observations from a re-analysis of the deposited data

How the results depend on the processing

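The calls of Maff and Mafk held in all 13 alternatives. Members called higher numbered 3, or 2 with the replicate block and without SCI 1, SCI 2 or sham 1, where Srxn1 was lost. Over all genes, 120 were higher and 6 lower. With no filter on low counts these were 182 and 42, with the hepatocyte covariate 212 and 29, and lower genes were 11 with DESeq2 and 1 with the replicate block. With 1 library left out, higher genes ranged from 62 to 132 and lower genes from 1 to 14. Same-numbered libraries deviated in opposite directions (r = -0.17, -0.117 and -0.26 across genes), no library correlated best with its own number, and the numbers were not taken as pairs. With the replicate block 81 genes were higher, and the log2 fold change of Srxn1 was 0.90 (edgeR adjusted p = 0.178). The block changed no other member's call. With a block the Maff share differed by 21.3 points (exact sign-flip p = 0.25, the smallest possible). As a share of Maff and Mafg only, that difference was 27.9 points, and with 1 library left out it was 19.2 to 23.0 points.

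Signs that turned belonged to genes that were not called in any setting, and the cause was not tested. With total counts they were Mafg (0.016), Ephx1 (0.018) and Hpx (0.018), with limma voom Ephx1 (0.045) and Hpx (0.086), with the replicate block Ephx1 (0.021) and Hpx (0.041), and with the hepatocyte covariate Gclm (0.014), Ephx1 (0.078) and Hpx (0.099). With 1 library left out the log2 fold changes ranged from -0.069 to 0.049 for Mafg, -0.14 to 0.37 for Nfe2l2, -0.031 to 0.17 for Keap1, -0.16 to 0.14 for Gclm and -0.19 to 0.071 for Gsk3b. They ranged from -0.18 to 0.33 for Gpx1, -0.037 to 0.34 for Gstm1, -0.025 to 0.28 for Prdx6, -0.34 to 0.084 for Prdx1, -0.57 to 0.016 for Txn1, -0.33 to 0.021 for Cbr1, -0.23 to 0.20 for Ephx1, -0.10 to 0.23 for Taldo1 and -0.27 to 0.27 for Hpx.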

Other observations

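Several pathway genes known to be abundant in most tissues had few counts. Over the 6 libraries, Ftl1, the ferritin light chain gene, had 12 counts, beside 135304 for the heavy chain gene Fth1. Gpx4, the peroxidase that protects membrane lipids, had 54 counts, beside 51000 for Gpx1, and the transferase gene Gstp1 had 8, beside 45313 for Gstm1. These 3 genes did not pass the filter. Since the treatment of reads with several matches is not given in the sources used here, their levels in the tissue cannot be read from these counts. The other untested genes were Nfe2 with 12 counts, Nrl with 8, Abcb6 with 32, and Mafa and Gpx2 with 0.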
